A study of Rattus norvegicus with 46 samples.

Results

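Vehicle-treated frontal lobe from experiments run separately was compared without any pesticide in play: 10 arrays of rats given 0 mg/kg, out of 46 arrays in the series. The study dosed male Fisher 344 rats, an inbred strain, once with the organophosphate chlorpyrifos or vehicle in 3 experiments called A, B and C. Animals were 11 to 12 weeks old, were killed 96 hours after the dose, and a piece of frontal lobe of about 30 mg per animal gave the RNA for 1 Affymetrix rat array. The vehicle arrays were taken by their titles: animals 1, 2 and 3 of experiment C, animals 1 to 4 of experiment B, and animals 2, 3 and 4 of experiment A. They are written here as C1 to C3, B1 to B4 and A2 to A4. Animal 1 of experiment A was left out because its column does not follow the row order of the table: its Pearson correlation with each of the 10 lay between -0.0044 and -0.0006, over probe sets on the log2 scale. The title of C1 carries the words 1st repeat, with no statement of what was repeated. A further line of the B vehicle labels names a dose of 1 mg/kg, against their titles, and the titles were followed. The groups share strain, sex, age, tissue, time and vehicle, so experiment is the labelled difference, and animals, handling, dissection, labelling and scanning cannot be told apart within it.

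A frontal piece of rat brain holds mainly cortex, whose glutamatergic and GABAergic neurons sit among astrocytes, oligodendrocytes, microglia and vessels. Beneath it lie the striatum, whose projection neurons are known for enkephalin, dopamine receptors and DARPP-32, and white matter rich in myelin genes. The choroid plexus secretes transthyretin into the ventricles, neurons of the hypothalamus make vasopressin and oxytocin, and the anterior pituitary, which hangs below the brain, makes growth hormone. Such genes are abundant at their source and low elsewhere, so they report what tissue a piece contains. Activity-regulated genes such as Fos, Arc and Ptgs2 respond within minutes to hours to neuronal firing, handling and stress.

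The 10 arrays had deposited median intensities between 253.55 and 280.35, and their number limits the precision of every comparison. Cortical markers were present on all of them: the mean of 22 genes of cortical glutamatergic neurons lay between 10.04 and 10.67 on the log2 intensity scale, and Slc17a7, their vesicular glutamate transporter, between 11.79 and 12.82 on one of its probe sets. Correlations of log2 intensity over probe sets ran from 0.960 to 0.973 for the 12 pairs of arrays within an experiment and from 0.946 to 0.970 for the 33 pairs between experiments. The beta-actin 3′/5′ ratio compares a probe set at the end of the transcript with one near its start and climbs when RNA or its copy is shortened. It was 1.40, 1.44 and 1.39 in C, 2.15, 1.66, 2.10 and 1.73 in B, and 1.53, 1.85 and 1.49 in A, so C lay below all other arrays. Means were 1.41 ± 0.028 in C (SD, n = 3), 1.91 ± 0.25 in B (n = 4) and 1.62 ± 0.20 in A (n = 3). An exact permutation test over 4200 arrangements of arrays gave p = 0.0348, or 0.139 adjusted over 8 array measures. The smallest p this design allows is 0.000476. The ratios of GAPDH (exact permutation p = 0.252) and hexokinase (exact permutation p = 0.188) did not pass. Their means ran the other way and were highest in C, at 1.20 for GAPDH and 2.52 for hexokinase. They were 1.15 and 2.10 in B, and 1.10 and 1.91 in A. The cre spike, a control added before hybridisation, read 11187 to 12006 in C, 14745 to 19280 in B and 11872 to 15498 in A (exact permutation p = 0.01, adjusted 0.08).

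**Figure D1:**
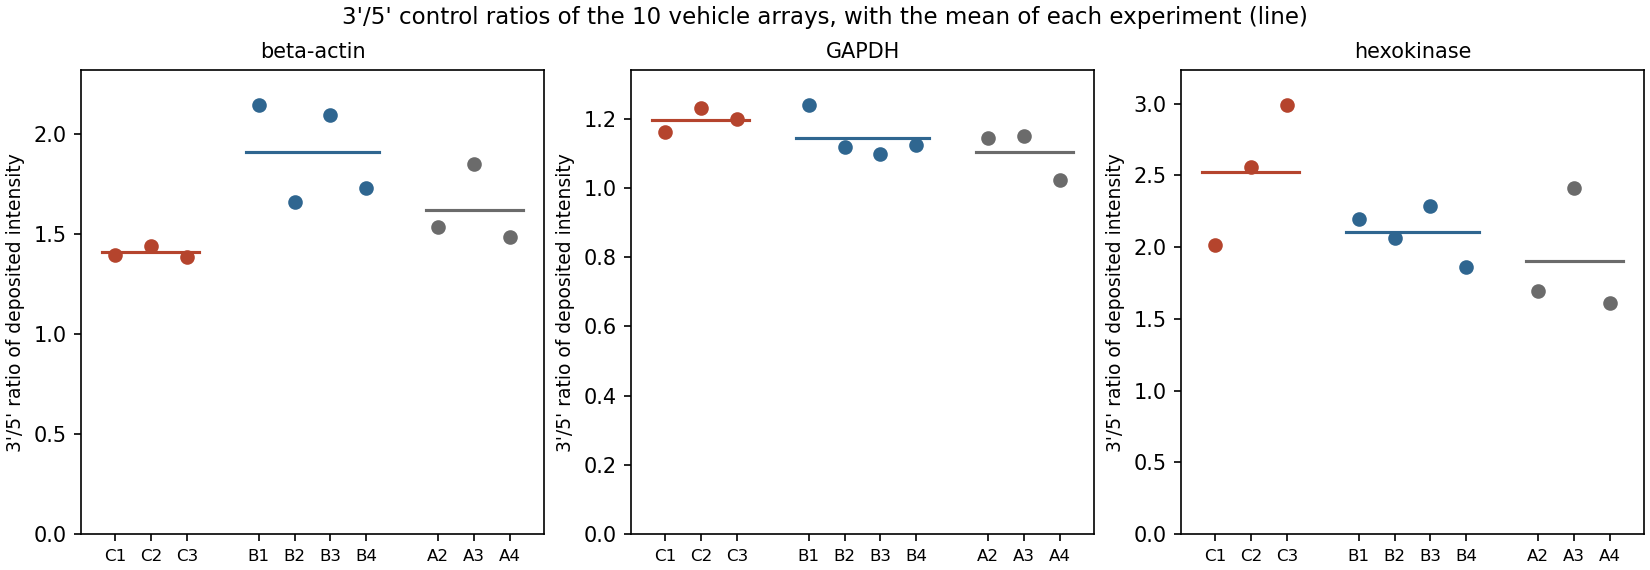
3′/5′ ratios of deposited intensity for beta-actin, GAPDH and hexokinase on each of the 10 vehicle arrays, in the order C, B, A, with a line at each experiment's mean. Beta-actin lies between 1.39 and 1.44 in C and between 1.66 and 2.15 in B, while the other controls overlap.

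Single arrays carried genes of tissue that is not cortex. Ttr, which encodes the transthyretin of the choroid plexus, had a deposited intensity of 171.8, 179.2 and 13797.1 in C1, C2 and C3. It had 258.7, 110.3, 199.4 and 145.2 in B1 to B4, and 329.5, 1136.2 and 294.6 in A2 to A4. C3 stood far above the other arrays, and A3 came next. Sostdc1, a secreted inhibitor of bone morphogenetic protein signals that the choroid plexus makes, was also highest in C3, at 10.20 log2 units with the next array at 7.99. Mfrp, a membrane protein related to frizzled receptors, read 9.65 in C3, with 7.64 on the next array. Enpp2, listed both for the choroid plexus and for oligodendrocytes and myelin, read 11.93 in C3, with 10.27 in B2. Aqp1 of the choroid plexus list did not follow: it read 9.08 in C3 and 9.40 in B3. Of the list members under the filter on dim probe sets, F5 (8.42), Cldn2 (8.81) and Kl were highest in C3. Otx2 and Cldn1 did not follow, at 6.33 and 5.59 in C3, inside the range of the other arrays. Kcnj13 was level, at 6.45 in C3 and 6.40 in B4.

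Some hypothalamic transcripts went with C3 as well. Avp, the vasopressin gene, read 2958.3 in C3, with 130.8 and 113.2 in C1 and C2. In B1 to B4 it read 187.1, 180.1, 193 and 130.4, and in A2 to A4 it read 633.1, 136.2 and 106.3. A2 was the second highest array, well below C3. Oxt, the oxytocin gene, fell under the filter on dim probe sets over the 10 arrays, yet it read 11.75 in C3 and 8.72 in A2 on the log2 scale, with the other 8 arrays between 4.85 and 6.82. Hcrt and Trh, also under that filter, were highest in C3 too, at 7.72 and 8.09. Gnrh1 and Ghrh, under it as well, did not follow. They read 6.19 and 4.89 in C3, with 6.95 for Gnrh1 in B1 and 6.75 for Ghrh in A3. Cartpt and Vip of the list did not follow either. Their intensities were 523.9 and 494.1 in C3, with 1421.1 for Cartpt in B2 and 857.3 for Vip in A4.

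Several pituitary hormone genes were high in 1 array of experiment B. Gh1, the growth hormone gene, had an intensity of 113.4, 80.7 and 102.9 in C, 74.2, 115.6, 20378.7 and 160.2 in B1 to B4, and 95.5, 83.7 and 129.9 in A. B3 alone stood far above the rest. Cga, the alpha subunit shared by the pituitary glycoprotein hormones, had 2960.1 in B3 and between 93.3 and 186 on the other 9 arrays. The hormone subunits Lhb and Fshb were also highest there, at 9.77 and 8.90 log2 units. Of the list members under the filter on dim probe sets, Prl and Tshb were highest in B3, at 13.50 and 10.26. Pomc and Pitx1 did not follow: Pomc was at the floor in B3 (3.51), and Pitx1 read 6.79, inside the range of the other arrays. Ttr, Avp, Gh1 and Cga were among the 10 genes with the largest spread within experiments, and no comparison of experiments called them.

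**Figure D2:**
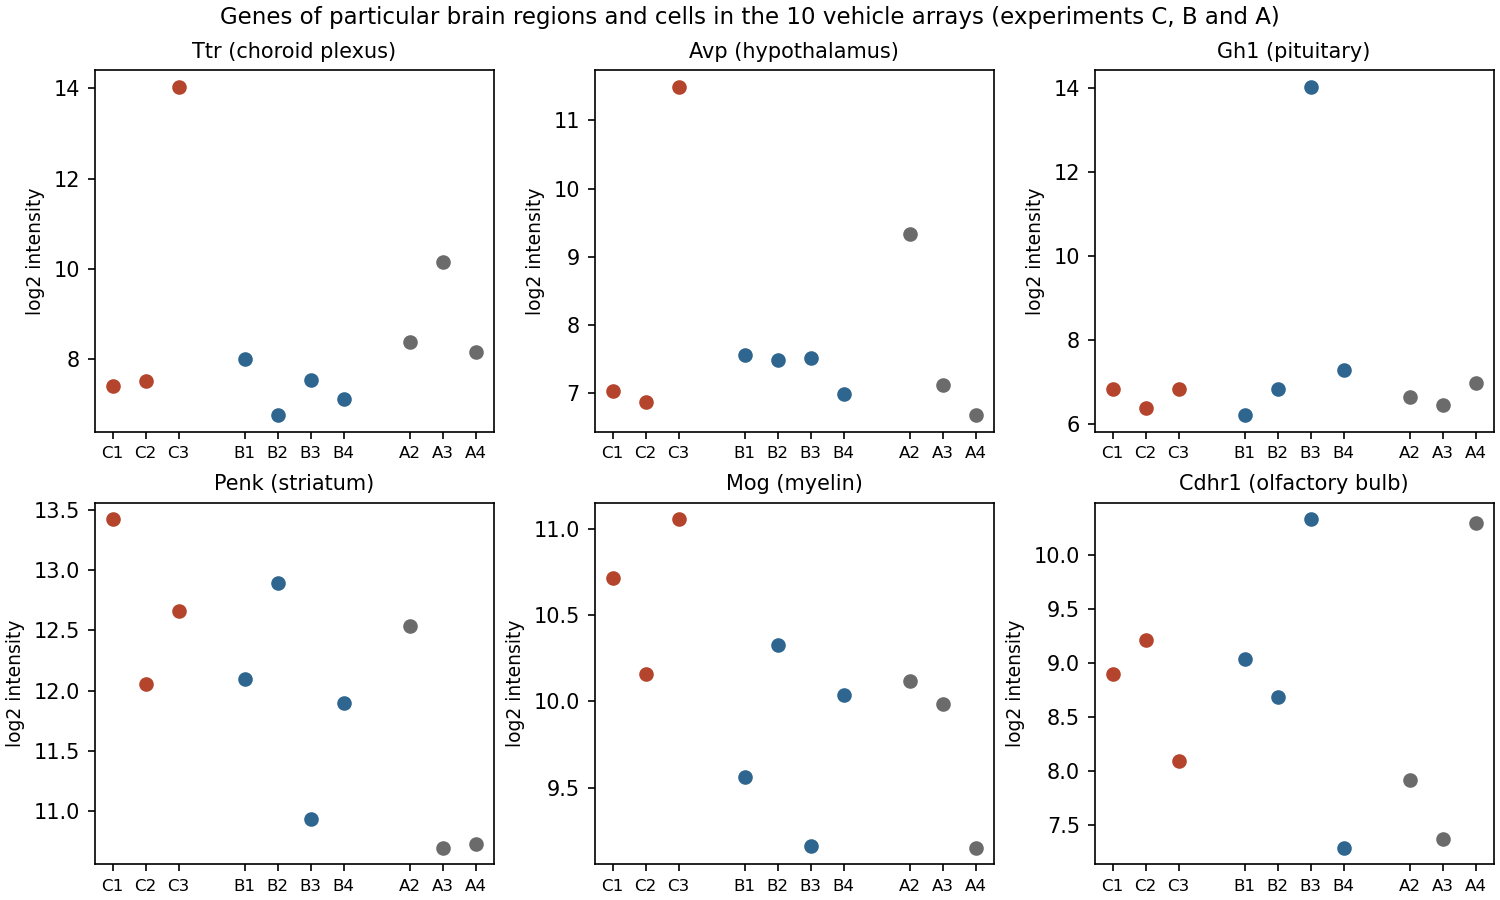
Log2 intensity of 6 genes that mark particular regions or cells, for each of the 10 vehicle arrays in the order C, B, A. Ttr and Avp peak in C3, Gh1 peaks in B3, Cdhr1 is high in B3 and A4, and Penk is lowest in A3, A4 and B3.

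Genes of striatal projection neurons varied more than any other list tested apart from the pituitary one, and they varied inside experiments. The mean log2 intensity over its 18 tested genes was 10.92, 9.53 and 10.04 in C1 to C3. It was 9.79, 10.46, 8.60 and 9.75 in B1 to B4, and 10.04, 8.57 and 8.38 in A2 to A4. B3, A3 and A4 were the low arrays and C1 and B2 the high ones. Fewer striatal cells in a piece and less striatal RNA per cell cannot be told apart in bulk RNA. Penk, the enkephalin precursor, read 13.42, 12.05 and 12.66 in C, 12.09, 12.89, 10.94 and 11.90 in B, and 12.53, 10.70 and 10.73 in A. Drd1, the D1 dopamine receptor, read 11.33, 9.69 and 10.35 in C, 9.93, 10.91, 8.22 and 9.55 in B, and 10.27, 7.71 and 7.88 in A. Penk and Drd1 thus ordered the arrays in much the same way, and both were chosen after their values were seen. Tac1, the substance P precursor, and Adora2a, an adenosine receptor of enkephalin neurons, were among the 10 genes with the largest spread within experiments.

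The striatal difference between experiments was large and uncertain. All 18 genes had a higher mean in C than in A, with a median difference of 1.25 log2 units, beside a median of 0.03 over all 7986 genes tested. By limma's moderated test none of the 18 passed at an adjusted p under 0.05, beside 1.96% of all probe sets tested, and 11 had an unadjusted p under 0.05, beside 19.6% of all probe sets. The median was 0.56 for C against B, with 16 of 18 genes higher in C, and 0.61 for B against A, with all 18 higher in B. No gene of the list passed in either of those, where 10.2% and 0.243% of all probe sets did, with 0 and 1 at an unadjusted p under 0.05, beside 27.1% and 9.88% of all probe sets. The gene with the smallest p was Pde10a, the phosphodiesterase of striatal neurons, with -0.94 for C against B and 1.51 for B against A, opposite in sign to the list for the first. Its second probe set passed as lower in C than in B (-1.27 ± 0.36, adjusted p = 0.0442).

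Myelin genes followed a similar order. The mean of the 18 oligodendrocyte and myelin genes tested was 11.12, 10.63 and 11.47 in C, 10.74, 11.04, 10.28 and 10.85 in B, and 10.78, 10.72 and 10.32 in A. B3 and A4 were lowest and C3 highest. Of these genes, 18 of 18 had a higher mean in C than in A (median 0.44) and 16 of 18 a higher mean in C than in B (median 0.33). Cldn11, the claudin of myelin tight junctions, passed for C against B, at 0.56 ± 0.15 (SE, adjusted p = 0.0421). It was the 1 call of the list there, 5.56% beside 10.2% of all probe sets, and the other comparisons had none. Mog, a surface protein of the outermost myelin, read 10.71, 10.16 and 11.06 in C, 9.56, 10.33, 9.16 and 10.04 in B, and 10.12, 9.98 and 9.15 in A, with overlapping groups.

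Other cells and regions marked single arrays as well. Meningeal and pericyte genes averaged 9.24 in B3 and 9.02 in A4, with the other 8 arrays between 8.42 and 8.82. The olfactory bulb list was highest in the same pair, at 9.84 in B3 and 9.73 in A4. Cdhr1, a cadherin of olfactory bulb output neurons, read 10.33 in B3 and 10.29 in A4 and at most 9.21 elsewhere. Calb2, Meis2 and Pcdh17 of that list peaked on other arrays. Calb2 had its highest intensity in C3 (1559.2), with 1093.8 in B3 and 936.9 in A4. Meis2 was highest in B2 (1954.2), with 1832.9 in B3 and 1867.6 in A4. Pcdh17 was also highest in B2 (1147), with 915.5 in B3 and 1046.1 in A4. Acta2, the actin of vessel walls, was lower in C than in B (-0.58 ± 0.17, adjusted p = 0.0456), and B3 was its highest array at 10.02. The choroid plexus list averaged 10.23 in C3 and no more than 8.85 elsewhere, the thalamic and hindbrain list 8.77 in C3 and at most 8.40 elsewhere. Cbln1, a synapse organiser of the cerebellum and thalamus, passed as higher in C than in B (1.07 ± 0.28, adjusted p = 0.0338), with its highest value, 8.69, in C3. Their part in the comparisons below was not tested beyond the counts without B3 and C3 and with the striatal mean as a covariate.

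**Figure D3:**
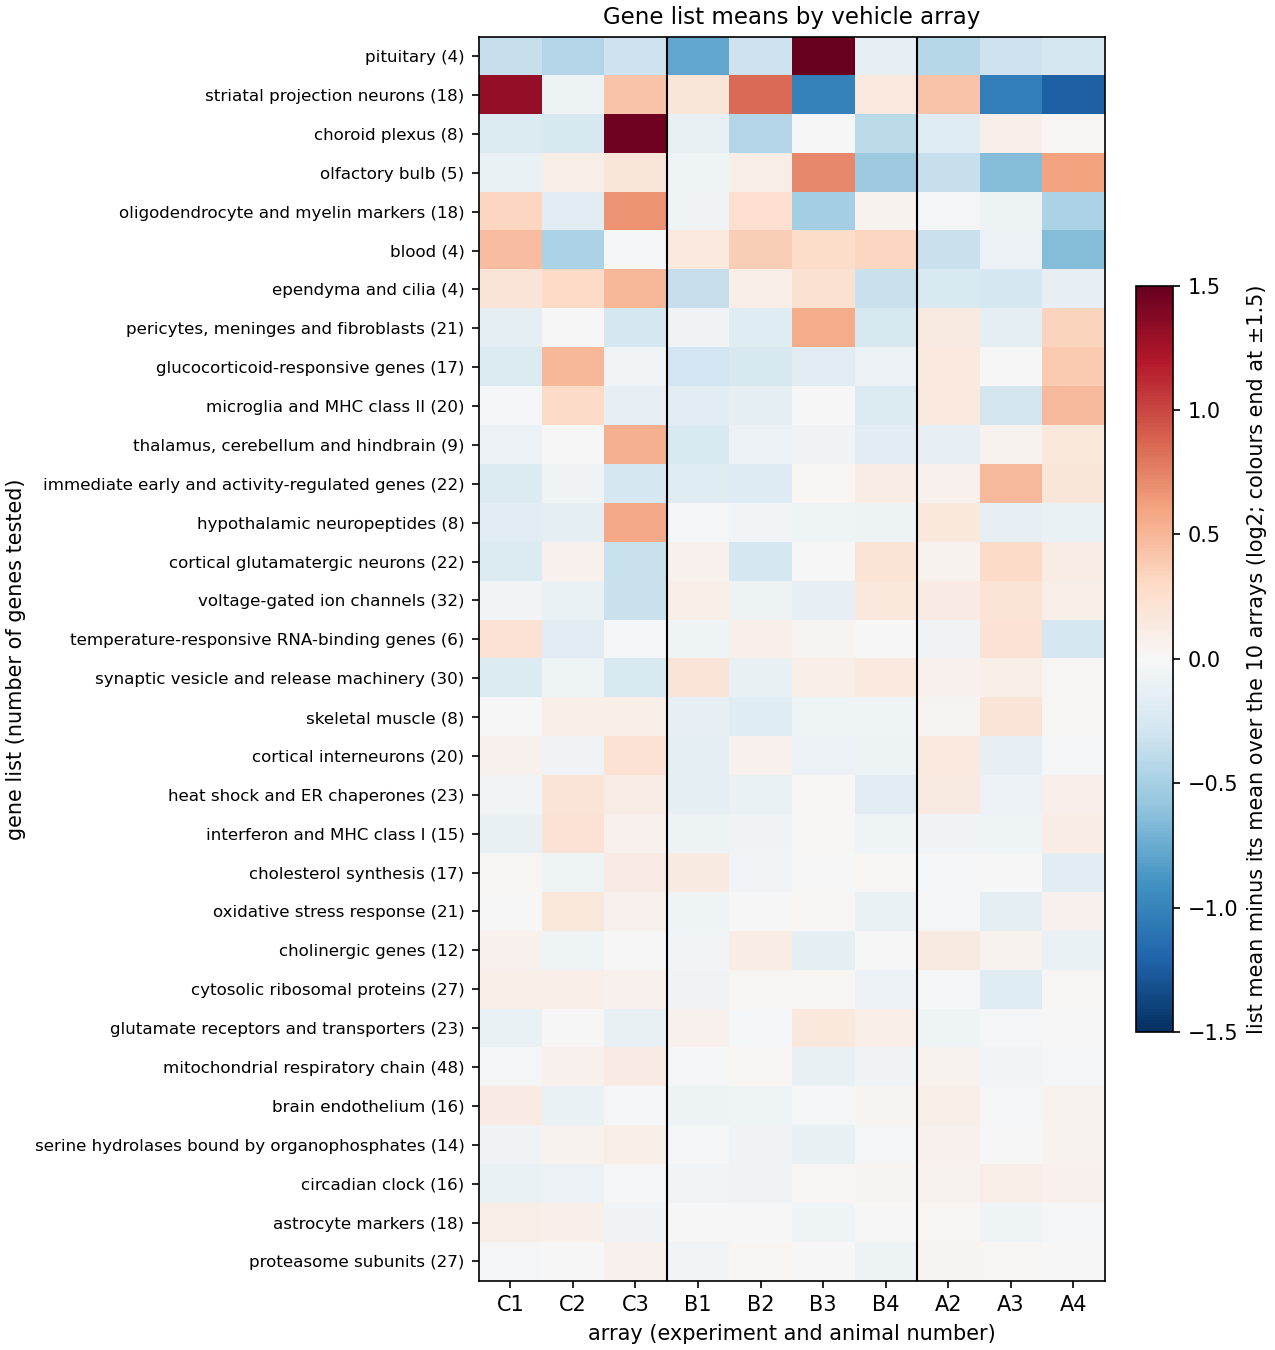
Mean log2 intensity of each gene list on each vehicle array, minus that list's mean over the 10 arrays, with lists ordered by their range and vertical lines between experiments C, B and A. The strongest colours are the pituitary list in B3, the choroid plexus list in C3 and the striatal list, which is high in C1 and B2 and low in B3, A3 and A4.

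The most probe sets were called between experiments C and B. Of 11106 probe sets tested with limma's moderated test, 1137 had an adjusted p under 0.05, which is 10.2% of those tested, with 457 higher in C (4.11%) and 680 lower in C (6.12%). At an unadjusted p under 0.05 the number was 3013 (27.1%). A joint test over the 3 experiments passed at 744 probe sets, or 6.7%. The called differences had a median size of 0.58 log2 units, and 164 exceeded 2-fold. Arrays of the 2 experiments did not overlap at 24.3% of all probe sets for C against B. For C against A the share was 25.1%, and for B against A 10.5%, so separation of arrays is common by itself. With median scaling alone the split was 633 higher and 545 lower of 1178, and with the deposited values unscaled it was 428 higher and 684 lower of 1112. Leaving out C3, the array with choroid plexus and hypothalamic genes, left 457 calls, leaving out B1 left 522, B4 672 and C2 728. Without both B3 and C3 there were 262, of which 250 were among the 1137. With the striatal mean as a covariate there were 1032, of which 903 were among the 1137.

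**Figure D4:**
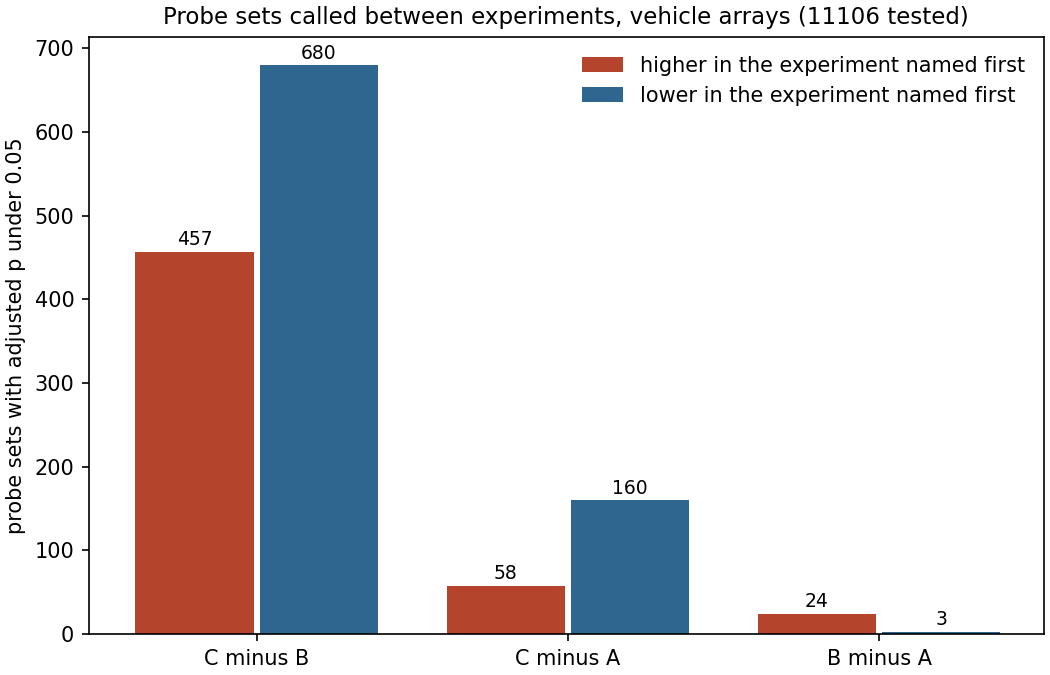
Number of probe sets with an adjusted p under 0.05 in each pairwise comparison of vehicle arrays, split by direction, out of 11106 tested. C minus B gives 457 higher and 680 lower, C minus A 58 and 160, and B minus A 24 and 3.

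The largest difference was at Slc4a4, the sodium bicarbonate cotransporter of astrocytes. On one of its probe sets it read 5.61, 5.50 and 5.30 in C, 9.35, 9.35, 9.37 and 8.79 in B, and 8.01, 6.08 and 7.74 in A. The C arrays lay below all others and B above all others. C minus B was -3.74 ± 0.37 (SE). This probe set passed the filter on dim probe sets through B alone: over the C and A arrays it averaged 6.37, and the lowest mean tested was 6.91. Without the filter limma's adjusted p was 0.00633. The other probe set of Slc4a4 gave 0.01 for the same comparison (adjusted p = 0.97).

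Other genes lower in C than in B had several roles. Kalrn, a signalling protein of dendritic spines, differed by -2.55 ± 0.55, but it passed the filter through B alone (mean 6.32 over the other arrays), and without the filter its adjusted p was 0.0525. Adcyap1r1, the receptor for the peptide PACAP, read 7.22, 6.67 and 6.40 in C, 8.69, 8.62, 8.83 and 8.70 in B, and 8.13, 7.84 and 8.08 in A. Its groups did not overlap, and C minus B was -1.95 ± 0.18 (adjusted p = 0.000508). Gda, the guanine deaminase that also binds tubulin in dendrites, Nfix and Id2, which regulate transcription in neural progenitors, and Ccnd2, a D-type cyclin, differed by -1.88 to -1.93. Their adjusted p ran from 0.00341 to 0.0108. Mindy2, a deubiquitinase, differed by -1.92, and it too passed the filter through B alone, with an adjusted p of 0.0319 without the filter. Of the 1137 probe sets called, 30 passed the filter through their highest experiment alone.

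Genes higher in C than in B were led by Csnk2a1, the catalytic alpha subunit of casein kinase 2. On one of its probe sets it read 7.97, 8.19 and 8.61 in C, 5.98, 6.20, 5.74 and 5.57 in B, and 7.40, 6.85 and 7.34 in A. The 3 experiments did not overlap at all, and C minus B was 2.39 ± 0.23. It passed the filter through C alone, with a mean of 6.44 over the B and A arrays, and without the filter the adjusted p was 0.00436. Gnb1, a G-protein beta subunit, rose by 2.03 ± 0.32 and Rpl37a, of the large ribosomal subunit, by 1.60 ± 0.25 (adjusted p = 0.00411 for each). Eaf1, a partner of the elongation factor ELL, Rnd3, a small GTP-binding protein, and Lage3, a subunit of the complex that modifies tRNA, rose by 1.27, 1.22 and 1.20. Josd2, a deubiquitinase, and Zmpste24, the protease that matures lamin A, rose by 1.23 and 1.22, and Josd2 passed in 7 of 22 alternatives.

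**Figure D5:**
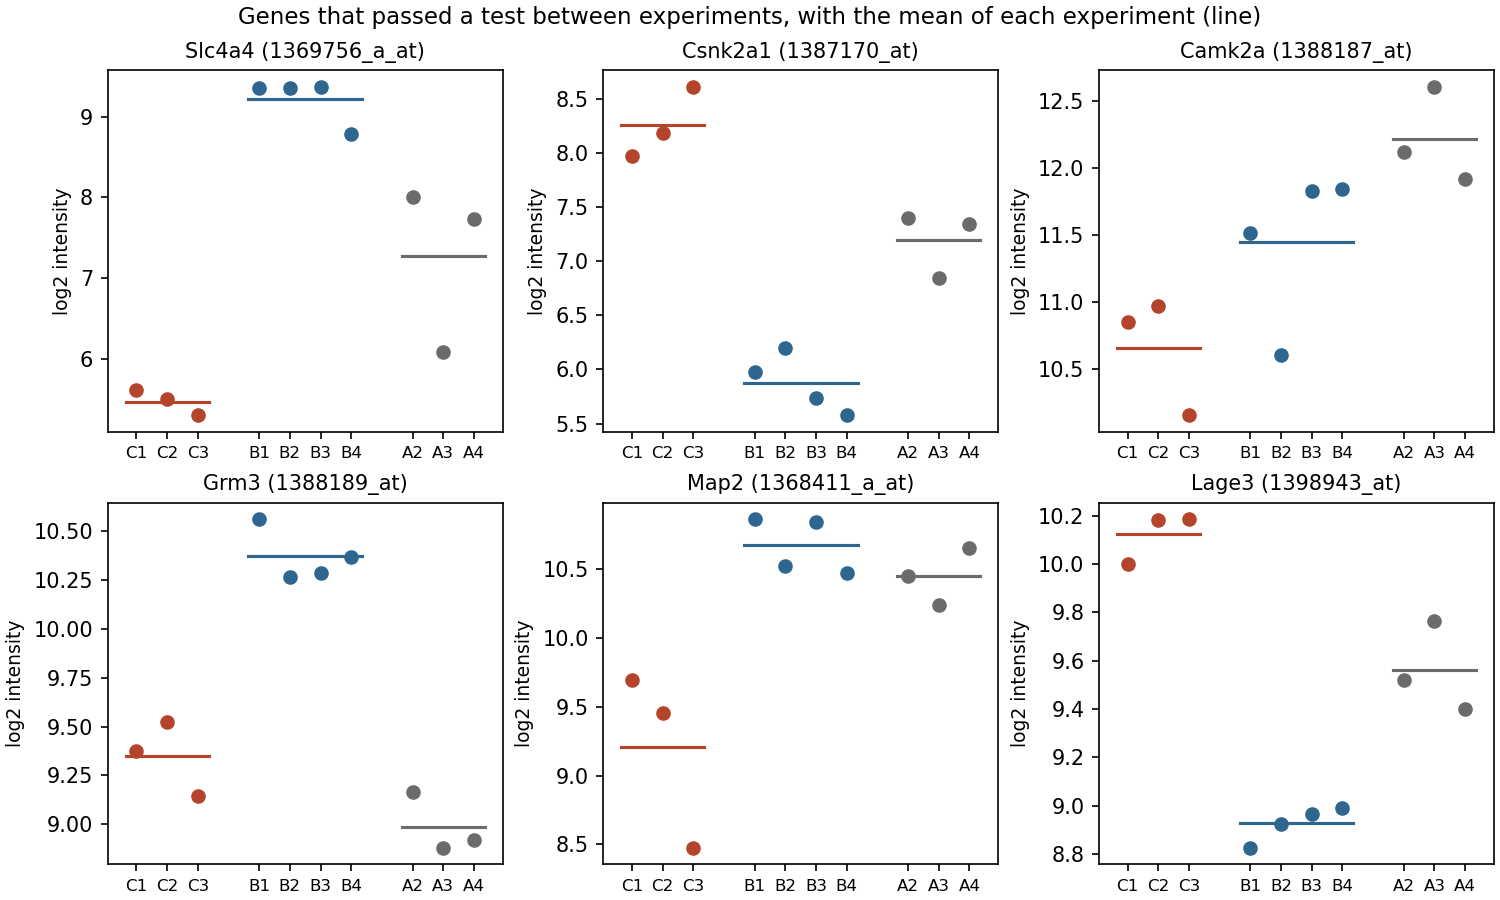
Log2 intensity of 6 genes that passed a test between experiments, on the probe set given, for each vehicle array in the order C, B, A, with a line at each experiment's mean. Slc4a4 and Csnk2a1 separate the 3 experiments in opposite orders of C and B, Camk2a and Map2 have their lowest mean in C, Grm3 stands higher in all 4 B arrays than elsewhere, and Lage3 is lowest in B.

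Probe sets of one gene often did not move together. Of 342 genes called for C against B that had more than 1 tested probe set, 136 (39.8%) had another probe set with the opposite sign, beside 47.7% of the 1135 genes with more than 1 probe set. In 11 genes both directions passed: Eif4g2, Gnb1, Gpd2, Ctnnb1, Eef1a1, Trak2, Reep5, Ttc3, Dpp8, Hnrnpa1 and Dclk1. Gnb1 rose by 2.03 on one probe set and fell by 0.93 ± 0.15 on another (adjusted p = 0.00411). Ctnnb1, which encodes beta-catenin, rose by 0.44 on one and fell by 1.46 on another. Dclk1, a microtubule-associated kinase, rose by 0.60 and fell by 0.58. The 16 genes named above for this comparison had 13 other probe sets in 9 genes, of which 3 passed in the same direction and 1 in the opposite one. Adcyap1r1 (-0.73, adjusted p = 0.00938) and Kalrn (-0.54 and -0.90) were the genes with a second call in the same direction. Id2, Gda and Csnk2a1 had others between 0.05 and 0.29 that did not pass. Where on the transcripts these probe sets lie was not used here, so a difference at 1 probe set is a difference of that probe set and not of the whole gene.

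With the beta-actin 3′/5′ ratio of each array as a covariate, 0 probe sets were called by limma for C against B, 0 for C against A and 1 for B against A, with 1195, 1492 and 870 at an unadjusted p under 0.05. The ratio of every C array was below that of every B and A array. For C, this ratio and experiment cannot be told apart. B and A overlapped, with A3 (1.85) above B2 (1.66) and B4 (1.73). The GAPDH and hexokinase ratios had their highest means in C, at 1.20 and 2.52. Grm3 for B against A was the 1 probe set still called. Estimates changed unequally: with the covariate C minus B was -4.42 for Slc4a4, 1.31 for Lage3 and 2.15 for Gnb1, as large as or larger than without it, while it was -0.79 for Ccnd2, -0.99 for Id2 and 0.26 for Josd2.

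Experiments C and A differed at 218 probe sets, 1.96% of those tested, with 58 higher in C (0.522%) and 160 lower in C (1.44%). At an unadjusted p under 0.05 there were 2182, or 19.6%. The count of calls changed when single arrays were left out. It was 1 without A4, 3 without A3, 11 without C3, 38 without A2 and 63 without B4. It was 109 without B1, 121 without C1, 129 without B3, 143 without C2 and 301 without B2. At an unadjusted p under 0.05 there were 1757 without A4, 1815 without A3, 1751 without C3 and 2022 without A2. The count of calls was 0 when only the arrays of C and A entered the fit, with 2112 at an unadjusted p under 0.05. It was also 0 with the striatal mean as a covariate, with 1608. Without both B3 and C3 it was 4, with 1739.

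Genes lower in C than in A were named by the size of the difference. Camk2a, the alpha subunit of the calcium and calmodulin kinase of excitatory synapses, read 10.85, 10.97 and 10.15 in C, 11.51, 10.60, 11.82 and 11.84 in B, and 12.11, 12.60 and 11.91 in A. C lay below A on all arrays and overlapped with B, and C minus A was -1.55 ± 0.31 (limma adjusted p = 0.0377). Map1b, a microtubule protein of growing axons, differed by -1.26 ± 0.18 (adjusted p = 0.0145), and Map2, that of dendrites, by -1.24 ± 0.26 (adjusted p = 0.0377). The second probe set of Map1b gave -0.06 (adjusted p = 0.84), while Map2 passed on both (-0.44, adjusted p = 0.0414). The serine/threonine kinases Rock2 and Stk32c and the receptor Adcyap1r1 differed by -1.33, -1.45 and -1.26. Slc4a4 gave -1.80 ± 0.40 on the probe set described above, with an adjusted p of 0.105 without the filter.

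Genes higher in C than in A were led by S100a13, a calcium-binding protein of the S100 family. It read 10.33, 10.39 and 10.60 in C, 9.50, 9.59, 9.50 and 9.15 in B, and 9.50, 9.24 and 8.24 in A. C was above all other arrays, and the difference from A was 1.44 ± 0.26 (adjusted p = 0.0281). Rrm1, the large subunit of ribonucleotide reductase, and Rgs3, which speeds up GTP hydrolysis by G-alpha proteins, rose by 1.01 ± 0.19 and 0.88 ± 0.17. Dpysl5, a collapsin response mediator of growing axons, Elovl1, which lengthens saturated fatty acids, and Carhsp1, an RNA-binding phosphoprotein, rose by 0.82, 0.77 and 0.76. Rnd3 rose by 1.01 (adjusted p = 0.0439), and Csnk2a1 gave 1.06, with an adjusted p of 0.0939 without the filter. The 16 genes named for C against A had 14 other probe sets in 9 genes, of which 2 passed, in Map2 and Rock2. Others of Rgs3 gave 0.15 and -0.18, that of Carhsp1 0.31, and those of Camk2a -1.61 and -0.31, with no call. The named genes passed in from 4 of 18 alternatives (Csnk2a1) to 14 of 22 (Map1b). Comparisons of C with B and of C with A share the C arrays, so a gene called in both is no separate evidence.

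Experiments B and A differed at 27 probe sets, 0.243% of those tested, with 24 higher in B (0.216%) and 3 lower (0.027%), and 1097 at an unadjusted p under 0.05 (9.88%). The number was 1 without A2 or without B3, 2 without A3, A4 or B1, 7 without B4 and 15 without C1, while it was 50 without C2 and 49 without C3. When only the arrays of B and A entered the fit it was 75, so the order of this count and that for C against A depends on the arrays used. Grm3, the metabotropic glutamate receptor mGluR3 of astrocytes and neurons, was the 1 of the 11 genes named here that passed in all alternatives. It read 9.38, 9.52 and 9.14 in C, 10.56, 10.27, 10.28 and 10.37 in B, and 9.17, 8.88 and 8.92 in A. All 4 B arrays were above the other 6. B minus A was 1.38 ± 0.12 (limma adjusted p = 0.00114), and it passed in 22 of 22 alternatives, with estimates from 1.31 to 1.47.

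The other genes higher in B than in A spanned several roles. Ddx6, an RNA helicase of processing bodies, rose by 1.59 ± 0.22 (adjusted p = 0.0173). Foxo1, a transcription factor that insulin signals restrain, differed by 1.66 ± 0.27, but it passed the filter through B alone (mean 6.61 over the other arrays), and its adjusted p was 0.143 without the filter. Cdh22 and Tenm2, adhesion proteins of neurons, rose by 1.46 and 1.36. Mgll, the serine hydrolase that breaks down the endocannabinoid 2-arachidonoylglycerol, read 8.45, 9.14 and 8.41 in C, 10.31, 9.89, 10.09 and 10.12 in B, and 8.86, 8.59 and 8.74 in A. B was above the other experiments on every array, and B minus A was 1.37 ± 0.17 (adjusted p = 0.0146). The remaining 3 probe sets of Mgll gave 0.44, 0.53 and -0.03, with no call. Tnrc6b, a partner of Argonaute in silencing by microRNAs, and Nav1, a microtubule-binding navigator, rose by 1.32 and 1.09. The 11 genes named for this comparison had 8 other probe sets in 5 genes, and none of these passed. Csnk2a1, on the probe set that passed the filter through C alone, gave -1.33 ± 0.23, with an adjusted p of 0.137 without the filter. Lower in B than in A were Lage3 (-0.63 ± 0.10, adjusted p = 0.0401) and Higd2a, a small protein of mitochondrial complex assembly (-0.50 ± 0.08, adjusted p = 0.0401).

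Activity-regulated genes had their lowest mean in C and their highest in A, with few calls. The list's mean over 22 tested genes was 8.81, 8.95 and 8.77 in C, 8.83, 8.82, 9.04 and 9.13 in B, and 9.07, 9.50 and 9.19 in A. A3 was the highest array, and all C arrays were below all A arrays. In C against A, 20 of 22 genes had a lower mean in C (median -0.48), beside 3597 of all 7986 genes. For B against A it was 19 of 22 (median -0.33), and for C against B 15 of 22 (median -0.13). Ptgs2, the inducible cyclooxygenase, read 6.75, 7.57 and 7.08 in C, 8.12, 6.85, 7.84 and 8.06 in B, and 8.27, 8.86 and 8.68 in A. C and A did not overlap, as at 25.1% of all probe sets, and C minus A was -1.47 ± 0.32 (limma adjusted p = 0.0439). It passed in 6 of 21 alternatives. Egr4, a zinc finger factor of the Egr family, read 8.84, 8.84 and 8.75 in C, 8.99, 8.59, 8.74 and 8.95 in B, and 9.28, 9.47 and 9.20 in A. All 3 A arrays were above the other 7, but C minus A was -0.51 with an adjusted p of 0.0638, and that of Nr4a3, an orphan nuclear receptor, was -1.01 with 0.0614. Gadd45b, a stress-responsive gene tied to DNA demethylation, ran the other way and passed as higher in C than in B (0.83 ± 0.18, adjusted p = 0.0172). At an unadjusted p under 0.05, 8 genes of the list were lower in C than in A and 1 was higher, beside 10.8% and 8.88% of all probe sets.

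Many of these genes are known as targets of the cAMP response factor CREB, so the 150 bases before the start of 4 of them are shown, from RefSeq on GRCr8. Capitals mark ACGTCA or its other strand TGACGT, the core of the cAMP response element.
Ptgs2, chr13:64713913-64714062, plus strand: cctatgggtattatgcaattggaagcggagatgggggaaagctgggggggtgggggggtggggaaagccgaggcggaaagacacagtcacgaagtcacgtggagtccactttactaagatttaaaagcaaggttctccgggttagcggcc
Egr4, chr4:119607818-119607967, minus strand: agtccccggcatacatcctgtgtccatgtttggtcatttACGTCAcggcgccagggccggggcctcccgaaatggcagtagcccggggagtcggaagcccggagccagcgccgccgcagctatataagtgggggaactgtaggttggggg
Gadd45b, chr7:9430719-9430868, minus strand: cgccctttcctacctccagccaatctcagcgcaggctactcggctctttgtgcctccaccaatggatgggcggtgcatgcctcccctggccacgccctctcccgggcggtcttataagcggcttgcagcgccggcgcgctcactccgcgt
Dusp1, chr10:17184703-17184852, plus strand: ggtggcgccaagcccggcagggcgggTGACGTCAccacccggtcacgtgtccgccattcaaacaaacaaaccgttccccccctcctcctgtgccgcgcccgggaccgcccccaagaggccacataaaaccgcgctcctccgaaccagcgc
Egr4 carried the motif once in this stretch, and Dusp1, a phosphatase of MAP kinases, carried it on both strands as 1 palindrome of overlapping letters. In the 250 bases before the start, 9 of the 23 listed genes found in the table held it (39.1%), beside 2325 of all 33469 promoters (6.95%). The match describes letters in the sequence and says nothing of binding.

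Glucocorticoid-responsive genes had their lowest list mean in B. Of 17 tested, 16 had a lower mean in B than in A (median -0.31), beside 4459 of all 7986 genes, and 12 had a higher mean in C than in B (median 0.21). None passed limma's adjusted test in the 3 comparisons, with 5 lower in B than in A and 5 higher in C than in B at an unadjusted p under 0.05. Each is 29.4% of the list, beside 5.05% of all probe sets lower in B than in A and 13.6% higher in C than in B. The list's mean was 9.19, 9.91 and 9.37 in C, 9.12, 9.17, 9.24 and 9.32 in B, and 9.55, 9.40 and 9.80 in A. C2 and A4 were its highest arrays. Sgk1, a kinase induced by corticosterone, read 10.13, 11.39 and 10.99 in C, 10.07, 10.09, 9.82 and 10.63 in B, and 10.78, 10.69 and 11.12 in A, and its adjusted p was 0.118 for C against B.

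Chaperones and clock genes were called between C and B in shares near that of all probe sets, 13% and 12.5% beside 10.2%. At an unadjusted p under 0.05 the shares were 34.8% and 56.2%, beside 27.1% of all probe sets. Of the clock genes, 4 were higher and 5 lower in C at that threshold. In the list of heat shock and endoplasmic reticulum chaperones 18 of 23 genes had a higher mean in C than in B (median 0.06), and 3 passed: Cryab, a small heat shock protein of glia (1.06 ± 0.20, adjusted p = 0.00846), Pdia4, a protein disulfide isomerase (0.95 ± 0.15, adjusted p = 0.00393), and Hsp90b1 (0.52 ± 0.13, adjusted p = 0.0324). Of 16 clock genes tested, 2 passed in opposite directions. Tef, a PAR domain factor driven by the clock, was lower in C than in B (-1.42 ± 0.27, adjusted p = 0.00879), and Nfil3, which represses the same sites, was higher (0.87 ± 0.17, adjusted p = 0.0107). Nfil3 averaged 8.05 in C, and it read 7.03, 6.86, 7.45 and 7.39 in B, and 7.60, 7.49 and 7.89 in A, with all C arrays above the others.

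Synaptic vesicle, voltage-gated channel and cortical glutamatergic genes mostly had lower means in C than in A. Of 30 synaptic vesicle genes tested, 25 had a lower mean in C than in A (median -0.26) and 22 a lower mean in C than in B (median -0.16). Against B, 3 fell and 2 rose, or 16.7% of the list beside 10.2% of all probe sets. Sv2a, a vesicle glycoprotein, fell by 0.45 ± 0.08 (adjusted p = 0.00607), and Nsf, the ATPase that recycles SNARE complexes, passed on all of its probe sets, at -0.59, -0.40 and -0.28, and on 2 of them against A, at -0.77 and -0.44. Pclo, a scaffold of release sites, differed by -0.61. Syt5 and Dnm1, a synaptotagmin and the neuronal dynamin, rose by 0.38 and 0.42. Of 32 voltage-gated channel genes, 26 were lower in C than in A (median -0.29). Kcna2, an axonal potassium channel, passed against A (-0.72 ± 0.14, adjusted p = 0.036) and against B (-0.70 ± 0.13, adjusted p = 0.00937). Among the 23 glutamate receptor and transporter genes, Gria2, the AMPA receptor subunit that limits calcium entry, differed between C and B by -1.11 ± 0.21 (adjusted p = 0.00909), beside Grm3. Of 22 genes of cortical glutamatergic neurons, 18 were lower in C than in A (median -0.31), where Camk2a passed, and Rasgrf2, a Ras exchange factor of upper cortical layers, passed against B (-1.07 ± 0.20, adjusted p = 0.00911). The cortical list was lowest in C3, B2 and C1, at 10.04, 10.12 and 10.17, and C1 and B2 were the arrays with the highest striatal means. Of 20 interneuron genes, Pnoc, a neuropeptide precursor, was the 1 that passed, as higher in C than in B (1.07 ± 0.23, adjusted p = 0.0155). That is 5% of the list. The channel, glutamate receptor and cortical glutamatergic lists had 6.25%, 8.7% and 4.55% called for C against B, beside 10.2% of all probe sets.

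Astrocyte genes were close to level as a list. Of 18 tested, 11 had a higher mean in C than in A (median 0.06). Mlc1, a membrane protein of astrocyte endfeet, passed as higher in C (0.46 ± 0.09, adjusted p = 0.0293), Sparcl1, a secreted synapse organiser, as lower (-0.27 ± 0.06, adjusted p = 0.0438), and Ntsr2, a neurotensin receptor, as higher in C than in B (0.46 ± 0.10, adjusted p = 0.0191). These calls are 11.1% of the list for C against A and 5.56% for C against B, beside 1.96% and 10.2% of all probe sets. Slc4a4 belongs to this list, where the probe set without a call stands for it. Of 20 microglial and MHC class II genes, none passed in the 3 comparisons, with 1 (5%) at an unadjusted p under 0.05 in each. For C against A, C against B and B against A, 1.96%, 10.2% and 0.243% of all probe sets passed. At an unadjusted p under 0.05 there were 19.6%, 27.1% and 9.88%. Of the 20 genes, 15 had a lower mean in B than in A (median -0.34). Of 16 endothelial genes, Abcb1a, the drug efflux pump of the blood-brain barrier, passed as lower in C than in B (-0.55 ± 0.16, adjusted p = 0.0458). That is 6.25% of the list, beside 10.2% of all probe sets.

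Housekeeping and metabolic lists differed by small amounts. Of 27 cytosolic ribosomal protein genes tested, 20 had a higher mean in C than in B (median 0.09), 4 rose and 1 fell, which is 18.5% of them beside 10.2% of all probe sets. Rpl11 rose by 0.36 ± 0.08 (adjusted p = 0.0168) and Rps29 by 0.34 ± 0.07 (adjusted p = 0.0149), while Rpl21 fell by 0.32. Of 48 respiratory chain genes, 35 had a higher mean in C than in B (median 0.11), with 5 that rose and 1 that fell, or 12.5%. Sdhc, a membrane anchor of succinate dehydrogenase, rose by 0.54 ± 0.10 (adjusted p = 0.00938) and Cyc1, cytochrome c1, fell by 0.38 ± 0.07 (adjusted p = 0.00998). Over all genes 4614 of 7986 had a higher mean in C than in B, so these shares stand beside a share of 57.8%. Cyp51 and Insig1, a sterol demethylase and the sterol sensor's anchor, were lower in C than in B by -0.74 ± 0.13 (adjusted p = 0.00747) and -0.55 ± 0.11 (adjusted p = 0.0109), the 2 that passed of 17 cholesterol synthesis genes. Psma1, of the proteasome core, was the 1 of 27 proteasome genes that passed, as lower in C than in A (-0.42) and than in B (-0.35). Of 21 oxidative stress genes, Sod3, the extracellular superoxide dismutase, passed as higher in C than in A (0.50 ± 0.11, adjusted p = 0.0441), and Sod1, the cytosolic one, as higher in C than in B (0.47 ± 0.11, adjusted p = 0.021). For C against B, the cholesterol, proteasome and oxidative stress lists had 11.8%, 3.7% and 4.76% called, beside 10.2% of all probe sets. For C against A they had 0%, 3.7% and 4.76%, beside 1.96%.

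Genes tied to the insecticide's known targets held no call between vehicle groups on the probe set that stands for each gene. None of the 12 cholinergic genes tested had an adjusted p under 0.05 in limma, with 2 at an unadjusted p under 0.05 for C against A, 0 for C against B and 1 for B against A. Over all probe sets 1.96%, 10.2% and 0.243% passed and 19.6%, 27.1% and 9.88% had an unadjusted p under 0.05, shares at which lists of 12 or 14 genes hold few calls. Lynx1, a membrane brake on nicotinic receptors, and Chrm3, the M3 muscarinic receptor, gave -0.46 and -0.47 for C against A (adjusted p = 0.076 and 0.12). Of 14 serine hydrolases that bind organophosphates, none passed, Mgll being called above on another of its probe sets, with 2, 3 and 0 at an unadjusted p under 0.05 in the same order. Apeh, an acylpeptide hydrolase, gave 0.60 for C against B (adjusted p = 0.064).

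Of 8 skeletal muscle genes tested, some of them also expressed in brain, 3 passed for C against B (37.5%, beside 10.2% of all probe sets): Myh1, a myosin heavy chain, was lower (-0.79 ± 0.11, adjusted p = 0.00277), while Acta1 and Tnni1, an actin and a troponin, were higher by 0.53 and 0.60. Tekt1, a tektin of motile cilia, read 7.51, 7.18 and 8.40 in C, 6.59, 7.53, 6.64 and 6.64 in B, and 6.44, 6.91 and 6.02 in A. C3 was its highest array, as for several choroid plexus genes, and its adjusted p was 0.092 for C against A. Slc4a1, the anion exchanger of red cells, read 7.97, 7.89 and 8.25 in C, 8.02, 8.41, 7.96 and 8.24 in B, and 7.22, 7.40 and 7.66 in A. All A arrays were below the other 7, and it passed in limma's F test over the experiments but in no pairwise comparison. None of the 15 interferon and MHC class I genes, 6 temperature-responsive RNA-binding genes, 8 choroid plexus genes, 8 hypothalamic, 5 olfactory bulb or 4 pituitary genes passed pairwise in limma. At an unadjusted p under 0.05 those lists, 46 genes in sum, had 0 genes for C against A, 5 for C against B and 5 for B against A. In the same order, 1.96%, 10.2% and 0.243% of all probe sets passed, and 19.6%, 27.1% and 9.88% had an unadjusted p under 0.05.

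The spread inside an experiment sets the scale for these values. The median standard deviation within experiments was 0.18 log2 units over the 11106 probe sets, with a 10th percentile of 0.095 and a 90th of 0.36. The steadiest genes of at least median intensity were Letm1, a mitochondrial ion exchanger, Pmpcb, a mitochondrial processing peptidase, Slc22a17, the lipocalin-2 receptor, Ap1m1, of the clathrin adaptor, and Golga7. Letm1 lay between 9.97 and 10.07 on all 10 arrays. At the other end, Kcnab2, a potassium channel beta subunit, read 7.40, 5.64 and 4.68 in C, 8.75, 5.02, 7.49 and 8.48 in B, and 8.45, 8.73 and 6.07 in A, while its other probe set stayed between 9.95 and 10.77. Adra1d, an alpha-1 adrenergic receptor, was lowest in C1 and B2, at 5.10 and 5.42, and lay between 8.07 and 8.98 elsewhere, and those arrays had the highest striatal means.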

How the data were processed

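Total RNA from 10 vehicle-treated frontal lobes was labelled with biotin from 15 ug per animal and hybridised to 1-colour Affymetrix arrays, per the labels' protocols. The authors deposited 1 linear intensity per probe set and array, with a trimmed mean near 500 on each array, and which software summarised the probes was not given in the sources used here. Members and gene lists were chosen with earlier results of these data known. Intensities were scaled to equal array medians, floored at the 5th percentile (11.38), put on the log2 scale and quantile normalised. The 57 control probe sets were set aside and probe sets with a mean under the 30th percentile dropped, which left 11106, of which 9334 had 1 gene symbol in GEO's platform annotation. Experiments were compared with limma 3.58.1 in R 4.3.3, in 1 fit over the 10 arrays with a mean per experiment, empirical Bayes with a trend, and Benjamini-Hochberg adjustment within each comparison. A call is an adjusted p under 0.05. The fit was tested on simulated data. A gene in a list is its brightest probe set, while the shares set beside the lists are over all probe sets. With 1 probe set for each of 7986 genes, the shares called were 1.62% for C against A, 8.93% for C against B and 0.138% for B against A. At an unadjusted p under 0.05 they were 18.6%, 25.9% and 8.84%. Nothing states that animals were housed or processed separately within an experiment, so p-values measure the spread between these arrays.

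Genes were named by rule: the 8 largest called differences per comparison and direction whose arrays do not overlap, up to 4 genes per list by the F test, the 10 most variable within experiments and the 5 steadiest. Oxt, Mfrp, Penk, Drd1, Sult1a1, C1qa, S100a9, Slc17a7, Pclo, Rpl21 and the genes called in both directions fall outside it and were chosen after their values were seen. The same holds for Prl, Tshb, Pomc, Pitx1, Kl, F5, Cldn2, Otx2, Cldn1, Kcnj13, Hcrt, Trh, Gnrh1 and Ghrh. Animal 1 of experiment A and all dosed arrays were left out. Alternatives changed scaling, floor, filter, prior, weights, covariates and arrays, and the closing section gives their effect. Promoter letters came from RefSeq on GRCr8. Position of the probes on transcripts was not used here.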

Additional observations from a re-analysis of the deposited data

Results flagged for a closer look

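In the 4 arrays of experiment B, 1 array stood apart from the other 3 by Dixon's 95% criterion in 16 of 212 values checked, and chance alone flags about 1 in 20 such groups. The groups of 3 arrays were not checked.

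B3 was high for Gh1 at 14.04 log2 units, for the mean of the pituitary list at 11.07 and for Acta2 at 10.02. It was low for Mbp, the major myelin protein, at 13.43, and for the mean of the astrocyte list at 11.22.

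B2 was high for Rgs3 at 8.99, Rpl37a at 12.18, Tekt1 at 7.53 and Abhd12, a serine hydrolase of lysophosphatidylserine, at 9.08. It was low for Insyn1, a protein of inhibitory synapses, at 7.79 and for the peroxiredoxin gene Prdx6 at 10.78. B4 was low for Slc4a4 at 8.79, Avp at 6.98 and Ap1m1 at 9.68. B1 was low for Itgam, an integrin of microglia, at 7.07 and high for the bioD hybridisation control, at an intensity of 3394.8.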

How the results depend on the processing

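No gene named by comparison changed sign in its comparison under any alternative tried. The signs of the other called probe sets were not checked. The numbers of probe sets called for C against A, C against B, B against A and over the 3 experiments jointly were 218, 1137, 27 and 744. Leaving out 1 array at a time gave 1 to 301, 457 to 1346, 1 to 50 and 215 to 932. With the beta-actin ratio as a covariate they were 0, 0, 1 and 0 by limma, with 1492, 1195, 870 and 1376 at an unadjusted p under 0.05. Without B3 and C3, a choice made after seeing the data, they were 4, 262, 32 and 112. The striatal mean as a covariate, also chosen after seeing the data, gave 0, 1032, 20 and 554. The 0 for C against A had 1608 at an unadjusted p under 0.05. With only the 2 experiments compared in the fit, C against A had 0, with 2112 unadjusted, and B against A 75. Median scaling gave 131 for C against A, and for C against B a split of 633 higher and 545 lower. Without the filter on dim probe sets C against A had 98, B against A 6 and the joint test 396. Without a trend in the prior C against A had 77 and B against A 12. With the animal number as a replicate block the counts were 0, 569, 3 and 159, and the unadjusted count for C against A was 1676. Same-numbered arrays of different experiments had residual correlations from -0.269 to 0.214 over 8 pairs. Arrays of unlike number had -0.249 to 0.225 over 25 pairs, so no pairing by number was seen. Named genes kept their call in 566 and lost it in 352 gene-by-alternative results. The spread between 3 or 4 arrays limits every call, and dim probe sets were not tested.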

Other observations

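C2 and A4 shared a set of high and low genes that crosses experiments. Sult1a1, a phenol sulfotransferase, read 11.09 in C2 and 10.83 in A4, and between 8.43 and 9.38 on the other 8 arrays. The complement genes C1qa and C1qb of microglia were highest in the same pair, C1qa at 11.04 and 11.22 with at most 10.19 elsewhere, and C1qb at 10.38 and 10.23 with at most 9.09 elsewhere. Rbm3, an RNA-binding protein induced by cold, was lowest there, at 8.60 in C2 and 8.83 in A4, with 9.69 to 10.14 on the others. S100a9, a calcium-binding protein of neutrophils that fell under the filter on dim probe sets, read 8.87 and 8.42, and between 3.51 and 6.94 elsewhere. The pair was chosen after its values were seen, so no test is given.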
